A study of Mus musculus with 9 samples.

Results

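The 6 interferon gamma inducible genes Gbp2, Igtp, Tgtp2, Gm43302, Ubd and Cxcl10 were followed in the kidney of ICR mice. They were found by gene name in the 2 deposited tables and were 6 of 489 distinct genes. All 6 were in both tables, which share only 13 genes. The 6 genes were chosen with earlier results of these data known, so their place in both tables is not a finding. The young group held 3 untreated mice of 2 months and the old group held 3 untreated mice of 20 months. The 3HB group held 3 mice of 20 months treated with 3-hydroxybutyrate (3HB), a ketone body, which they drank with their water (1 g/L, named as the sodium salt in the treatment protocol) since the age of 11 months. All mice were male. ICR is an outbred stock, so mice of 1 group are not genetically identical. RNA of kidney tissue was sequenced, and a lower value in such bulk tissue can come from fewer cells of a type or from less RNA per cell, which cannot be told apart.

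Interferon gamma is a cytokine made mainly by activated T cells and natural killer cells. Through its receptor and the IRF transcription factors, among others, it switches on a set of defence genes in nearly every cell type, tubular epithelium included. Among these are the guanylate binding proteins (GBPs) and the immunity-related GTPases (IRGs), which attack the vacuoles of intracellular parasites and bacteria. Ubd, also called FAT10, is a ubiquitin-like modifier that sends its targets to the proteasome and responds to interferon gamma and tumour necrosis factor together. Cxcl10 is the chemokine that attracts T cells carrying the receptor Cxcr3.

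The annotation deposited with the values gives 4 of the 6 genes (Gbp2, Tgtp2, Gm43302 and Ubd) a term for a response to interferon gamma, which 3.68% of the 489 genes carry. It gives 3 of the 6 genes (Gbp2, Igtp and Tgtp2) a term for a response to interferon beta, which 1.43% of the 489 genes carry. Igtp has the term for interferon beta only, and Cxcl10 has no interferon term there. On GRCm38, the build named in the submitters' processing notes, Gbp2 lies at chr3:142620602-142638008 on the plus strand, Igtp at chr11:58199556-58207591 on the plus strand and Tgtp2 at chr11:49057194-49064206 on the minus strand. Gm43302 lies at chr5:105214907-105293695 on the minus strand, Ubd at chr17:37193892-37196095 on the plus strand and Cxcl10 at chr5:92346638-92348889 on the minus strand (GENCODE M21).

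The stretches before the transcription start are shown because interferon responses are known to act through short motifs there. RefSeq (GRCm38.p6) gave a promoter for 5 of the 6 genes and none for Gm43302. The 250 bases before the RefSeq start were searched on both strands for the core of the interferon-stimulated response element (ISRE, spelled GAAA, any 2 bases, GAAA), for the gamma-activated site (GAS, TTCNNNGAA) and for the NF-kB consensus with any base at its 2 central positions. Capitals mark every match, and each line runs 5′ to 3′ along the gene. For Gbp2 the GENCODE transcript begins 61 bases upstream of the RefSeq start, and the line, shortened at its 3′ end to position -32, runs a short way into that transcript.
Gbp2 (chr3:142620413-142620631, plus strand): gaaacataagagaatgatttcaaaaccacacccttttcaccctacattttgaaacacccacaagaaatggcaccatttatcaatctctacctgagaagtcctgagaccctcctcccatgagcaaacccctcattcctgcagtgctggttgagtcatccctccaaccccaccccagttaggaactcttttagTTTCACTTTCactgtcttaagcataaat
Igtp (chr11:58199306-58199555, plus strand): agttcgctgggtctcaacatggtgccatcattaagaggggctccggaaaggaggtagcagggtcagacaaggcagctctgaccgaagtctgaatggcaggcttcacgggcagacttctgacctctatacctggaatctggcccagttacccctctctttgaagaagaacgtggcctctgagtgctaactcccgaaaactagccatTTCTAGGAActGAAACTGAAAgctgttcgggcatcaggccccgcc
Tgtp2 (chr11:49064213-49064462, minus strand): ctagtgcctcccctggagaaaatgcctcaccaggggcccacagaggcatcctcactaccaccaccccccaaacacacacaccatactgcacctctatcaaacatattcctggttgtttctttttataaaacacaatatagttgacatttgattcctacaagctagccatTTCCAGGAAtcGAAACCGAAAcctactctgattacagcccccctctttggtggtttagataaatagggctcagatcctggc
Ubd (chr17:37193642-37193891, plus strand): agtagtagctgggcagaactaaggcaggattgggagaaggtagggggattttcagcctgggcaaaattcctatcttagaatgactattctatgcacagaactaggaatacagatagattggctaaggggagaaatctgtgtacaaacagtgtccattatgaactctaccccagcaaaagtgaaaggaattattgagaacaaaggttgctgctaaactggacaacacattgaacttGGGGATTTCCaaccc
Cxcl10 (chr5:92348890-92349139, minus strand): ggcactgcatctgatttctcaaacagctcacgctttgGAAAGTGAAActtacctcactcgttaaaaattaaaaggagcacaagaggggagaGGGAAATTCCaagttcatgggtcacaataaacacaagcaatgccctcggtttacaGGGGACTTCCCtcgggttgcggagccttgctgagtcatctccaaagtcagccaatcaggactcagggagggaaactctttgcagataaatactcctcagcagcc

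The ISRE core was in 4 of the 5 promoters (Gbp2, Igtp, Tgtp2 and Cxcl10), against 2.98% of 32851 mouse promoters of the same length. In Gbp2 it ran on the opposite strand, from position -59 to -50 before the RefSeq start, which is inside the GENCODE transcript. In Igtp it lay at -34 to -25, in Tgtp2 at -70 to -61 and in Cxcl10 at -213 to -204. Ubd held no match to these letters in its window.

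Igtp and Tgtp2 also held the GAS motif, at -45 to -37 and at -81 to -73, which 7.02% of all promoters held. In both genes it stood 2 bases before the ISRE core. This joint arrangement, searched for after it had been seen in these promoters, was found at 5 places in all promoters, and the genes were Igtp, Tgtp2, Irgm2, Tgtp1 and Gm12185, all in the list of GTPase genes used below and all on chromosome 11. The NF-kB consensus was in Cxcl10, at -159 to -150 and in overlapping matches from -104 to -94, and in Ubd, at -15 to -6, against 7.25% of all promoters. A match describes letters and is no evidence of binding, and the RNA data do not bear on it directly.

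**Figure D1:**
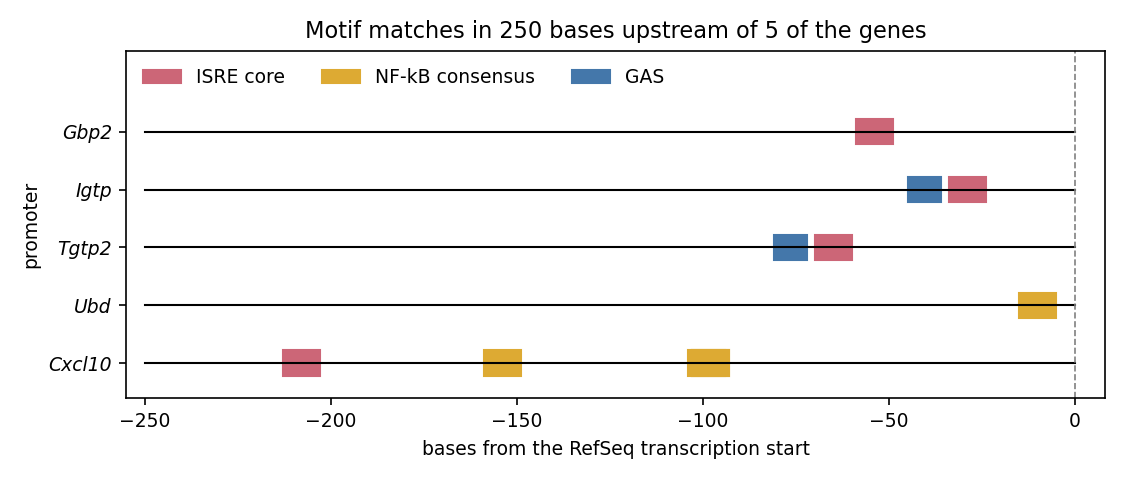
Matches to the ISRE core, the GAS motif and the NF-kB consensus in the 250 bases before the RefSeq start of 5 genes. The horizontal axis gives bases from the start (dashed line), each row is a promoter and each box is a match on either strand. Gbp2, Igtp, Tgtp2 and Cxcl10 hold an ISRE core, and only Igtp and Tgtp2 hold a GAS box, 2 bases from it.

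The tables give a normalized value with 2 decimals per gene and mouse. The sources used here do not state whether it is TPM or FPKM, and they give no read totals, so depth is unknown and precision rests on 3 mice per group. Each table holds only genes that the authors had called on these mice, for young against old or for 3HB against old. The values of the 6 genes in those comparisons therefore describe what was called, and no test across all genes was possible. The number of genes measured is not given in the sources used here, so the share of all genes called is unknown. Counts of called genes in the lists below thus have no background, and a gene not called is not shown to be unchanged. Differences are given on the log2(value + 1) scale, which understates the change of low values. The smallest two-sided p that an exact permutation test can give for 3 mice against 3 is 0.1, so no gene could pass a threshold of 0.05. As a check of the tissue, the proximal tubule genes Lrp2 and Keg1 were among the called genes, with a summed value of 792.2 to 1753.2 in the 9 mice. None of the 8 skeletal muscle markers listed has a value in the tables, which hold called genes only, so this does not show whether muscle RNA was present.

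All 6 genes had their highest mean in the old mice, a lower mean in the 3HB mice and the lowest mean in the young mice. The old mice were not alike. In all 6 genes, old mice 1 and 3 stood above every young and every 3HB mouse, and old mouse 2 was the lowest of the old mice. Old mouse 2 lay inside the range of the 3HB mice in 4 of the 6 genes, above all of them in Tgtp2 and under all of them in Igtp.

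Gbp2 (ENSMUSG00000028270) encodes a large GTPase that coats pathogen vacuoles. Its values were 1.83, 0.89 and 1.10 in young mice 1, 2 and 3, 7.68, 2.09 and 5.38 in the old mice, and 2.37, 1.66 and 1.79 in the 3HB mice. The old mice all stood above the young mice, while old mouse 2 lay among the 3HB mice. The group means were 1.27 ± 0.493 (young), 5.05 ± 2.81 (old) and 1.94 ± 0.378 (3HB) (SD, n = 3 each). The old mean was 3.97 times the young mean, a log2 difference of 1.31 (standard error 0.47; two-sided exact permutation test, p = 0.1). It was 2.60 times the 3HB mean, with a log2 difference for 3HB of -0.92 (standard error 0.45; exact permutation test, p = 0.2). Without old mouse 1 that difference was -0.60.

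Gm43302 (ENSMUSG00000079362) is a GBP gene model that runs over the Gbp6 and Gbp10 loci on the same strand. Of its 4310 exonic bases, 40.0% are also exons of Gbp6 and 41.6% are also exons of Gbp10, so its value cannot be separated from reads of these neighbours. The young mice were at 0.75, 0.17 and 0.67, the old mice at 4.26, 0.83 and 6.53, and the 3HB mice at 1.16, 0.97 and 0.72. Old mouse 2 lay just above the highest young mouse and under the highest 3HB mouse. The group means were 0.530 ± 0.314 (young), 3.87 ± 2.87 (old) and 0.950 ± 0.221 (3HB) (SD, n = 3 each). On the log2 scale the old mean was higher than the young mean by 1.47 (standard error 0.64; exact permutation test, p = 0.1). For 3HB minus old the log2 difference was -1.10 (standard error 0.62; exact permutation test, p = 0.3), with -1.70 without old mouse 2 and -0.68 without old mouse 3.

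Igtp (ENSMUSG00000078853), also named Irgm3, is a regulatory IRG that holds other IRG proteins off the membranes of the cell itself. It was at 5.32, 3.64 and 3.45 in the young mice, at 16.47, 4.38 and 25.08 in the old mice and at 7.11, 4.73 and 5.05 in the 3HB mice. Old mouse 2 was lower than young mouse 1 and lower than every 3HB mouse, so the groups overlapped in both comparisons. The group means were 4.14 ± 1.03 (young), 15.3 ± 10.4 (old) and 5.63 ± 1.29 (3HB) (SD, n = 3 each). Old exceeded young by 1.41 on the log2 scale (standard error 0.70; exact permutation test, p = 0.2). The log2 difference for 3HB minus old was -1.04 (standard error 0.70; exact permutation test, p = 0.4). It was -1.70 without old mouse 2 and -0.57 without old mouse 3, and old minus young was 0.93 without old mouse 3. Of its 2022 exonic bases, 8.01% are shared with Irgm2 on the same strand.

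Tgtp2 (ENSMUSG00000078921) is an effector IRG that loads onto parasite vacuoles. Its transcript is 99.8% identical to that of the neighbouring gene Tgtp1 over its whole length, so reads could be split between these copies and the value is uncertain. The young mice were at 1.43, 0.58 and 0.97, the old mice at 6.36, 2.52 and 5.03, and the 3HB mice at 2.20, 1.81 and 1.32. Tgtp2 was the only one of the 6 genes in which all old mice stood above all 3HB mice, and here they also stood above all young mice. The group means were 0.993 ± 0.425 (young), 4.64 ± 1.95 (old) and 1.78 ± 0.441 (3HB) (SD, n = 3 each). Old minus young was 1.46 on the log2 scale (standard error 0.36), and 3HB minus old was -0.97 (standard error 0.35). Both had p = 0.1 in the exact permutation test, the smallest possible here.

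Ubd (ENSMUSG00000035186) had the largest differences of the 6 genes in all 3 comparisons on the log2(value + 1) scale, while Igtp had the largest in the values as deposited. The young mice were at 0.29, 0.84 and 0.24, the old mice at 12.33, 2.02 and 15.63, and the 3HB mice at 1.29, 1.71 and 2.31. All young mice were under all other mice, and old mouse 2 lay between 3HB mice 2 and 3. The group means were 0.457 ± 0.333 (young), 9.99 ± 7.10 (old) and 1.77 ± 0.513 (3HB) (SD, n = 3 each). The old mean was 21.9 times the young mean and 5.65 times the 3HB mean, and the 3HB mean was 3.88 times the young mean. Without young mouse 2, the highest young mouse, the old mean was 37.7 times and the 3HB mean 6.68 times the young mean. Without old mouse 3 the old mean was 15.7 times the young mean and 4.05 times the 3HB mean. Without young mouse 3 the 3HB mean was 3.13 times the young mean. The log2 difference was 2.61 with age (standard error 0.79; exact permutation test, p = 0.1), -1.68 for 3HB against old (standard error 0.79; exact permutation test, p = 0.2) and 0.93 for 3HB against young (standard error 0.24; exact permutation test, p = 0.1).

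Cxcl10 (ENSMUSG00000034855) had the smallest differences of the 6 genes on the log2(value + 1) scale. With a pseudocount of 0.1, Igtp had the smallest for old minus young and for 3HB minus young. The young mice were at 3.61, 0.57 and 1.39, the old mice at 5.22, 2.85 and 6.15, and the 3HB mice at 3.81, 1.57 and 1.80. Young mouse 1 and 3HB mouse 1 were both higher than old mouse 2, so the groups overlapped in each comparison. The group means were 1.86 ± 1.57 (young), 4.74 ± 1.70 (old) and 2.39 ± 1.23 (3HB) (SD, n = 3 each). Old minus young was 1.10 on the log2 scale (standard error 0.53; exact permutation test, p = 0.2). The log2 difference between 3HB and old was -0.77 (standard error 0.39; exact permutation test, p = 0.2). Of its exonic bases, 5.91% lie opposite exons of Art3 on the other strand, and whether the counting used strand is not given in the sources used here.

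**Figure D2:**
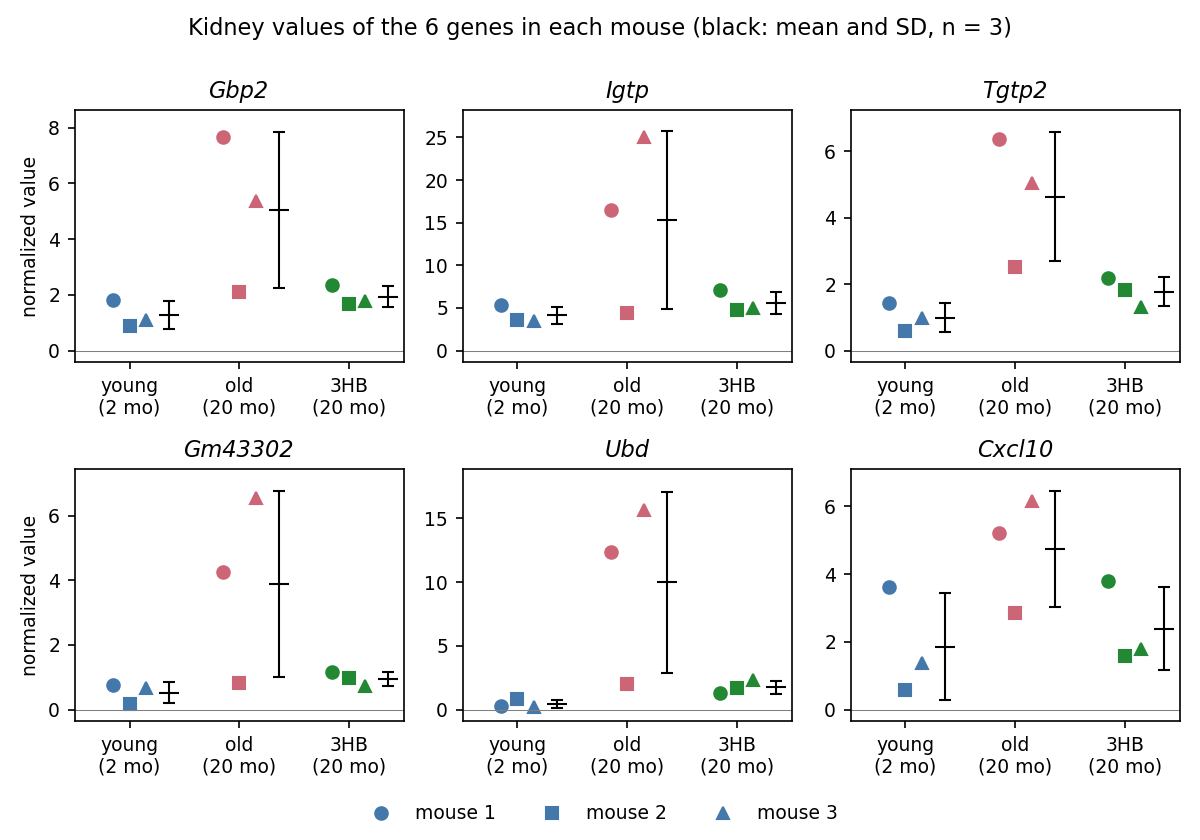
Normalized value (vertical axis, unit not stated by the authors) of each of the 6 genes in 3 young, 3 old and 3 3HB mice. Coloured points are single mice with a shape for each mouse number, and black bars give mean and SD (n = 3). Old mice 1 and 3 stand above all young and 3HB mice in every panel, and old mouse 2 is the lowest old mouse in every panel.

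The comparison of young with old asks which kidney genes differ at 20 months. The old mean was higher in all 6 genes, in a table where 69.7% of the 389 genes were higher in old mice. The median log2 difference over the 6 genes was 1.43, from 1.10 for Cxcl10 to 2.61 for Ubd, and that over the whole table was 1.14. No old mouse overlapped with the young mice in 4 of the 6 genes (Gbp2, Tgtp2, Gm43302 and Ubd). Among all listed genes 92.5% had no overlap, 65.6% with the old mice higher. Adjusted over all 489 genes (Benjamini-Hochberg), the exact permutation p was 0.13 for these 4 genes and 0.24 for Igtp and Cxcl10.

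The comparison of 3HB with old asks what treatment changed at 20 months. The 3HB mean was lower in all 6 genes, in a table where 61.9% of the 113 genes were lower with 3HB. The median log2 difference over the 6 genes was -1.005, from -0.77 for Cxcl10 to -1.68 for Ubd, and that over the whole table was -0.42. Only Tgtp2, 1 of the 6 genes, kept 3HB and old mice apart, while 89.4% of the table did, 51.3% with the 3HB mice lower. Old mouse 2 lay within the range of the 3HB mice in only 6.19% of that table, which is 7 genes, and 4 of those were Gbp2, Gm43302, Ubd and Cxcl10. The adjusted exact permutation p ranged from 0.34 for Tgtp2 to 0.67 for Igtp.

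The separation of the groups changed when old mouse 2 was left out. Without it, all 6 genes separated the old from the 3HB mice (96.5% of the table did so), and the median log2 difference with 3HB was -1.52 in place of -1.005. All 6 genes then also separated old from young mice, as did 96.1% of that table. Both counts of 6 restate the order given above, in which old mice 1 and 3 stood above every young and 3HB mouse. With 3HB mouse 1 left out in place of old mouse 2, 3 of the 6 genes separated old from 3HB mice, against 91.2% of the table. Without old mouse 3 that median was -0.75, and without old mouse 1 it was -0.80, with 1 gene free of overlap in each case. The mean of old mice 1 and 3 was 1.99 times old mouse 2 in Cxcl10, 2.26 times in Tgtp2, 3.12 times in Gbp2, 4.74 times in Igtp, 6.50 times in Gm43302 and 6.92 times in Ubd. The median of this ratio over the 271 genes called for age and higher in old mice was 1.16. In those genes old mouse 2 was the lowest old mouse in 39.5%, and in the genes of the 3HB table that were lower with 3HB in 47.1%, against 6 of the 6 genes here.

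A gene of other tissues was also lowest in old mouse 2 among the old mice. Cox8b, a cytochrome oxidase subunit of muscle, heart and brown fat, was called for age. It was picked here after its values were seen. The young mice were at 1.83, 1.79 and 2.14, the old mice at 24.30, 0.53 and 56.07 and the 3HB mice at 0.59, 0.59 and 0. Cox8b was thus high in old mice 1 and 3 only, the mice that were high in the 6 genes. Unlike in those genes, its 3HB mean (0.39) lay under its young mean (1.92). The part of other tissue in these libraries was not tested.

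The spread among the old mice was wide. The coefficient of variation of the 6 genes had a median of 61.8% in old mice and 24.0% in 3HB mice, from 35.9% to 74.1% and from 19.5% to 51.5%. Over all 489 genes these medians were 32.1% in old and 24.8% in 3HB mice. In young mice the median was 51.1% for the 6 genes and 40.0% for all genes. The 3HB mice were thus about as even in these genes as in all genes, and the old mice were less so.

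**Figure D3:**
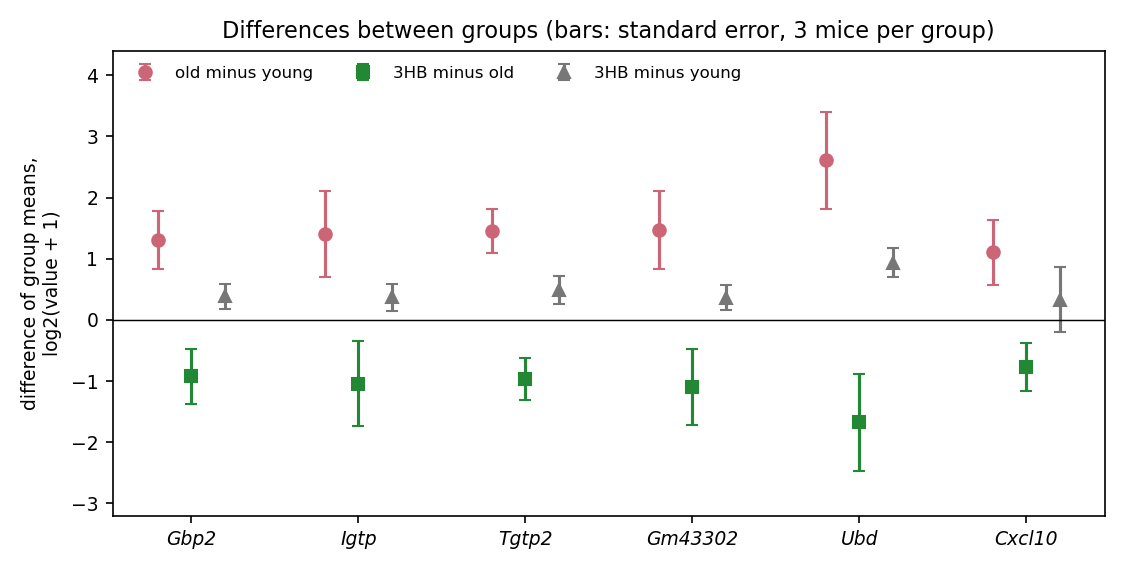
Differences between group means on the log2(value + 1) scale (vertical axis) for each gene, with standard errors from 3 mice per group. Circles give old minus young, squares 3HB minus old and triangles 3HB minus young. Old minus young is above 0 and 3HB minus old is below 0 in all 6 genes, and 3HB minus young lies between 0.33 and 0.93.

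Neither table was called on 3HB against young, although the young and the 3HB mice each entered one of the callings. The 3HB mean was above the young mean in all 6 genes, as in 66.9% of the 489 genes. In Cxcl10 this turned without young mouse 2, to a log2 difference of -0.026. Without 3HB mouse 1 the log2 difference was 0.05, but the 3HB mean of the values was 0.91 times the young mean. The log2 difference was 0.50 without 3HB mouse 2 and 0.75 without young mouse 1. For Gm43302 the difference was 0.18 without young mouse 2, and for Igtp it was 0.22 without 3HB mouse 1. The median log2 difference was 0.38, against 0.75 over the 489 genes, and it was 0.72 with a pseudocount of 0.1. The groups overlapped in 5 of the 6 genes and did not in 1, Ubd, while 73% of all genes had none, 54.2% with the 3HB mice higher. Between young and 3HB mice the log2 difference was 0.38 for Gbp2 (standard error 0.20; exact permutation test, p = 0.3), 0.37 for Igtp (standard error 0.22; exact permutation test, p = 0.3) and 0.49 for Tgtp2 (standard error 0.22; exact permutation test, p = 0.2). It was 0.37 for Gm43302 (standard error 0.21; exact permutation test, p = 0.2) and 0.33 for Cxcl10 (standard error 0.53; exact permutation test, p = 0.5). Adjusted over all 489 genes, the exact permutation p lay between 0.14 for Ubd and 0.53 for Cxcl10.

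Among the young mice, mouse 1 was often the highest. It was the highest young mouse in 5 of the 6 genes, all but Ubd, and in 37.4% of all genes. Without it, 6 of the 6 genes separated the young from the 3HB mice, against 77.5% of all genes, and the median log2 difference was 0.60. The old and young mice were then also apart in all 6, against 94.6% of the age table. Likewise 3HB mouse 1 was the highest 3HB mouse in all of the genes but Ubd, and in 23.9% of all genes. On the log2 scale the 3HB mean stood at 0.25 to 0.36 of the way from the young to the old mean, with Gm43302 the lowest and Ubd the highest. The same 3 old mice enter both deposited comparisons, so these positions move with any error in the old mean. They also move with single young or 3HB mice. Without young mouse 2, the Cxcl10 mean of the 3HB mice lay under that of the young mice.

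The 6 genes were also compared with each other mouse by mouse. Over the 9 mice, the correlation of each gene with the mean of the other 5 (z-scored log2 values, Pearson's r) was 0.97 for Gbp2, 0.97 for Gm43302, 0.96 for Tgtp2, 0.96 for Igtp, 0.90 for Ubd and 0.84 for Cxcl10. These 9 points share the group differences and the libraries, and the values are descriptions only.

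Other GTPases of these families were called as well. A list of 26 IRG and GBP genes had 11 called in either table, the 4 above and 7 others, and the remaining 15 cannot be described here. Of the 11, the age table held 10, each with a higher mean in old mice, and the 3HB table held 5, each with a lower mean with 3HB, where the shares over the tables are 69.7% and 61.9%. Over the 7 others the median log2 difference was 1.14 for old minus young and -0.64 for 3HB minus old. Since 6 of these 7 were not called for 3HB, while Gbp2, Igtp, Tgtp2, Gm43302, Ubd and Cxcl10 all were, the latter value cannot be compared with theirs. In 6 of the 7 others old mouse 2 was the lowest old mouse, against 39.5% of the genes called for age and higher in old mice. Gbp8 was the exception and the only one of the 7 called for 3HB.

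Ifi47, another IRG, had values of 1.55, 0.66 and 0.86 in the young mice, of 7.75, 1.92 and 6.59 in the old mice, and of 2.39, 2.02 and 1.94 with 3HB. Old mouse 2 was thus under all 3HB mice. Gbp10, which shares exons with Gm43302, had 0.19, 0.14 and 0.17 in the young mice, 3.73, 0.20 and 3.06 in the old mice and 1.21, 0.31 and 0.33 with 3HB, and old mouse 2 was hardly above the young mice. Gbp8 was at 2.37, 3.55 and 4.07 in old and 1.85, 1.57 and 1.78 in 3HB mice, without overlap, and there old mouse 1 was the lowest old mouse.

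Of 16 genes for interferon gamma, its receptor and its signalling, 1 was called, for age. This was Ciita, the master regulator of MHC class II genes, with means of 0.387 ± 0.114 in the young, 1.25 ± 0.572 in the old and 0.670 ± 0.0954 in the 3HB group (SD, n = 3 each). The ligand Ifng and its receptors were not among the called genes, and their levels were not analysed here. Of the Cxcr3 ligands and their receptor, Cxcl10 and Cxcl11 were called out of 4 genes. Cxcl11 had 0.04, 0.09 and 0.06 in the young mice, 0.66, 0.29 and 0.85 in the old mice and 0.10, 0.13 and 0.20 with 3HB. These are very low values, yet the old mice did not overlap with either of the other groups. Of 8 genes for conjugation and partners of FAT10, only Ubd itself was called, and of 11 genes of tumour necrosis factor and NF-kB signalling 0 were called. With the share of all genes called unknown, these counts do not show whether the uncalled genes changed.

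Of 24 listed genes better known for a response to type I interferon, 1 was called, Ifi44l, for age, and the others have no values here. It was at 0, 0 and 0.10 in young, at 4.08, 2.12 and 1.05 in old and at 2.75, 3.19 and 1.18 in 3HB mice. The old and the 3HB mice overlapped, with a log2 difference of 0.03 (standard error 0.48), and old mouse 3, high in the 6 genes, was the lowest old mouse here.

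**Figure D4:**
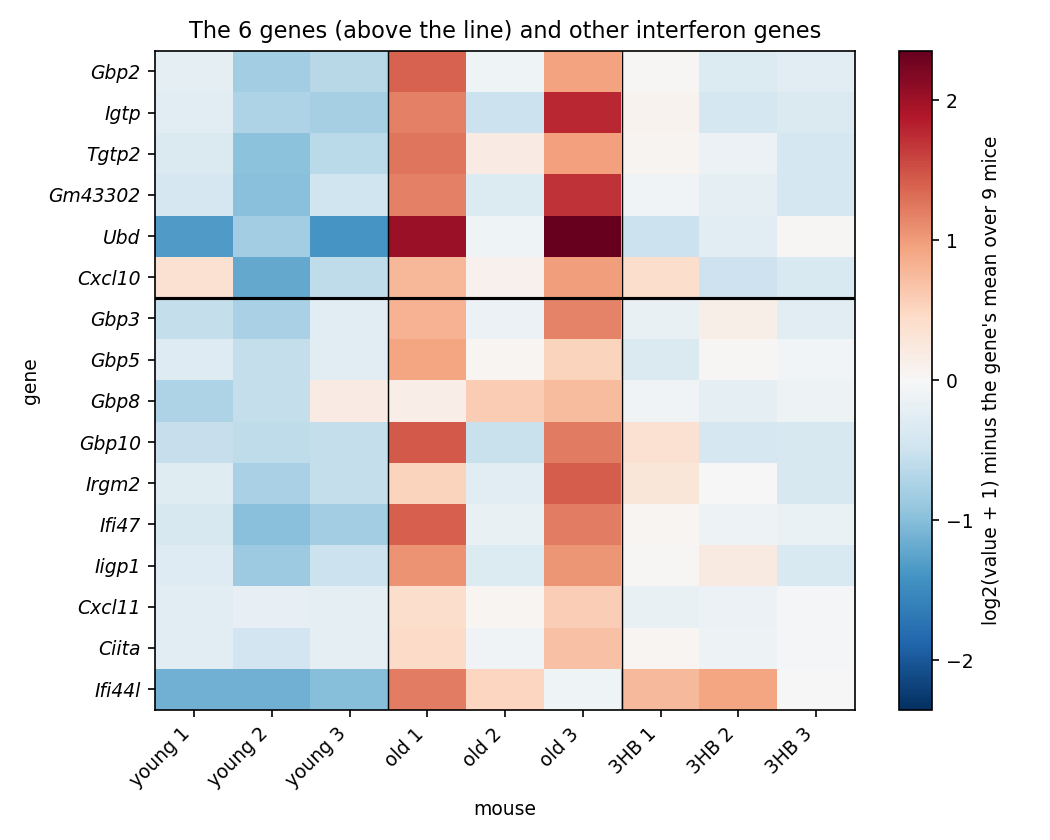
Log2(value + 1) minus the mean of each gene over the 9 mice (colour), for the 6 genes above the line and other called interferon genes below it, in columns for the 9 mice. Old mice 1 and 3 are red in the 6 genes while old mouse 2 is near the 3HB mice, and Gbp8 and Ifi44l order the old mice differently.

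The genes most like the mean of the 6 over the 9 mice were sought among 444 other genes with a mean of at least 1 in their highest group. The 10 nearest were Ifi47 (Pearson's r 0.99), Ciita (0.97), Psmb8 (0.96), Iigp1 (0.96), Gbp10 (0.95), H2-Aa (0.93), H2-DMa (0.93), Gbp3 (0.93), H2-Ab1 (0.93) and Irgm2 (0.93). Of these, 5 belong to the GTPase list, 3 are MHC class II genes and Psmb8 is an inducible subunit of the immunoproteasome. These genes were picked for the highest r, and the values share the difference between old mouse 2 and old mice 1 and 3. Among the 3HB mice the order was not always that of the 6 genes, of which 5 were highest in 3HB mouse 1. H2-DMa was at 8.61, 9.80 and 10.34 in 3HB mice 1, 2 and 3 and Iigp1 at 1.67, 2.02 and 1.04. Psmb8 was at 30.65, 16.12 and 34.03 in old and at 12.97, 14.33 and 12.57 in 3HB mice, and old mouse 2 was again the lowest old mouse. The list of antigen processing and presentation genes had 9 of 17 called, 5 for age, each with its higher mean in old mice, and 7 for 3HB, each with its lower mean in 3HB mice, where 69.7% of the age table was higher in old mice and 61.9% of the 3HB table was lower with 3HB.

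Markers of immune cells were called to different extents. The share of all genes called is unknown, so these counts do not show which cells changed. Of 10 B and plasma cell markers 5 were called, Jchain, Igkc, Cd79a, Mzb1 and Ighm, all for age and each with a higher mean in old mice, as 69.7% of that table had. Their summed value was 40.3 to 212.8 in the young, 853.5 to 3083.1 in the old and 2305.1 to 3438.5 in the 3HB group. Of 13 T cell markers 1 was called, Cd8a, from 0.47 to 5.37 in the young, from 0.33 to 0.80 in the old and from 0.47 to 0.94 in the 3HB group. Of 10 natural killer and cytotoxic and of 7 dendritic cell markers 0 were called. Of 13 macrophage and monocyte markers 1 was called, Lyz2, from 7.54 to 8.69 in the young, from 22.9 to 72.0 in the old and from 34.3 to 42.9 in the 3HB group. Lyz2 was lowest in old mouse 2 among the old mice, as the 6 genes were, but its mean in 3HB mice was close to that in old mice (log2 difference 0.04, standard error 0.50). Leukocyte genes outside the lists were called for age too, picked here after their values were seen. Ms4a7 had 0.27, 0.08 and 0.09 in the young mice, 2.54, 0.84 and 0.69 in the old mice and 1.27, 1.43 and 0.79 with 3HB. Itgal had 0.09, 0.12 and 0.20 in the young mice, 1.09, 0.74 and 0.42 in the old mice and 0.74, 0.46 and 0.47 with 3HB. In both genes old mouse 3 was the lowest old mouse. In others old mouse 2 was the lowest, as in the 6 genes, with old values of 2.49, 0.94 and 1.93 in Cd44, of 13.78, 3.35 and 13.83 in the chemokine gene Ccl2 and of 38.29, 20.38 and 38.17 in Cxcl16. With 3HB these were 1.5, 1.22 and 1.88 in Cd44, 5.62, 8.67 and 7.96 in Ccl2 and 24.10, 22.77 and 17.24 in Cxcl16. Leukocyte and chemokine genes thus did not share 1 order of the old mice. The part of these cells in the values of the 6 genes was not tested.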

How the data were processed

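RNA from the kidneys of 9 ICR mice (3 young, 3 old, 3 with 3HB) was read by paired-end sequencing (150 bp). The methods text names muscle as the tissue, while the labels and the results of the study name kidney. Per the labels, the submitters' processing notes name CASAVA, HISAT2, StringTie and GRCm38. The authors deposited 2 tables of normalized signal values per gene, and which unit (TPM or FPKM), annotation, test and threshold lay behind them is not given in the sources used here. The tables list called genes only (389 for young against old, 113 for 3HB against old), and genes in both carry identical values.

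From the deposited values, group means of log2(value + 1) were compared, with standard errors from the SDs of both groups. Two-sided exact permutation tests covered all 20 splits, with Benjamini-Hochberg adjustment over 489 genes. Nothing states that the mice came from separate litters or cages, so p-values measure the spread between these mice. The 6 genes are named in full, other genes come from 17 lists, and the most alike genes are the 10 with the highest Pearson's r. The members and lists were chosen with earlier results of these data known. Replicate numbers did not pair the mice.

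Transcripts and exons came from GENCODE M21, and near-copies were sought with blastn 2.17.0. Promoters came from RefSeq. The scripts were tested on simulated data. Figures were drawn with matplotlib 3.10.9, and the computation used scipy 1.17.1, pandas 2.3.3 and numpy 2.4.6 under Python 3.11.15. Alternatives covered the pseudocount, medians, values without logs, a replicate block and leaving out each mouse.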

Additional observations from a re-analysis of the deposited data

How the results depend on the processing

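Of 180 alternative values for single genes, 179 kept their direction. The exception was Cxcl10 in 3HB against young mice, with a log2 difference of -0.026 without young mouse 2 in place of 0.33, and up to 0.75 without young mouse 1. The median log2 difference over the 6 genes lay between 1.13 and 1.91 for old against young, between -1.52 and -0.75 for 3HB against old and between 0.28 and 0.60 for 3HB against young when 1 mouse was left out. For 3HB against young it was 0.72 with a pseudocount of 0.1, in place of 0.38, as a smaller pseudocount weighs low values more. The number of genes without overlap moved from 1 to as many as 6 for 3HB against old (without old mouse 2) and from 1 to as many as 6 for 3HB against young (without young mouse 1), and from 4 to 6 for old against young (without either). It was 3 for 3HB against old without 3HB mouse 1, 2 without 3HB mouse 3, and 3 for 3HB against young without 3HB mouse 3. All 6 genes had a highest group mean of at least 1, so that filter changed nothing. With the replicate block, in which mice of the same number are paired, the exact sign-flip p was 0.25, the smallest that 3 pairs allow, in 16 of 18 comparisons and 0.5 in Igtp and Gm43302 for 3HB against old. The deviations of same-numbered mice from their group means over the 489 genes correlated at -0.24 to 0.16, so the numbers were not taken as pairs. Depth is unknown, and 3 mice per group limit every comparison.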

Other observations

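The old mice were not ordered the same way in all called B and plasma cell markers. In Jchain, the joining chain of secreted immunoglobulin, the old mice were at 302.2, 317.4 and 60.4, and in Igkc, the kappa constant gene, at 2648.0, 2743.2 and 771.4. Old mouse 2 was thus the highest and old mouse 3 the lowest in both genes, whereas old mouse 3 was high and old mouse 2 low in Gbp2, Igtp, Tgtp2, Gm43302, Ubd and Cxcl10. In 3HB mice Jchain was at 201.0, 202.9 and 218.0, between the old values, while Igkc was at 2125.6, 2072.3 and 3187.8, with 3HB mouse 3 above every old mouse. Mzb1, at 8.0, 11.16 and 6.02 in the old mice, had the same order as Jchain and Igkc. Ighm and Cd79a had other orders. Ighm was at 21.07, 7.86 and 14.93 in the old mice, with old mouse 2 the lowest as in the 6 genes. Cd79a was at 3.68, 3.55 and 0.70, with old mouse 1 the highest and old mouse 3 the lowest. All 5 were called for age and not for 3HB. These values were picked after they had been seen, and no test was made of them.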
